A study of Homo sapiens with 8 samples.

Results

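Acute-phase plasma protein genes encode secreted proteins that the liver releases into blood, many of them in larger amounts during inflammation. The set described here has 9 genes, found by their symbols among the 61228 genes of the deposited tables: CP, AGT, SAA1, SAA2, LCN2, FGA, FGB, FGG and A2M. CP and AGT were chosen by their change with ACBI1 in these libraries, CP for its rise in HCC44 and AGT for its fall in both lines. Those changes are given below as a description, with no test. The other 7 genes were added for their shared role, at a time when results of these data were known.

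RNA was measured in 4 groups of 2 libraries each: H1975 cells with DMSO, H1975 cells with ACBI1, HCC44 cells with DMSO, and HCC44 cells with ACBI1. H1975 and HCC44 are established human lung cancer cell lines, both labelled wild type (WT), and all cultures were treated for 96 hours in the same serum-containing medium. DMSO is the solvent. ACBI1 is a PROTAC: it bridges the VHL ubiquitin ligase to bromodomain proteins of the SWI/SNF chromatin remodellers, SMARCA2, SMARCA4 and PBRM1, and so marks them for degradation. The labels give 1 mM ACBI1, a concentration far above those usual for degraders, so that unit is uncertain. Because ACBI1 removes proteins, target transcripts cannot serve as a check of the treatment labels. In HCC44 ACBI1 replicate 2 the title abbreviates the compound, which the treatment label spells out. Nothing in the labels says whether replicates were separate cultures, so the p-values measure only the spread between these libraries.

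In the liver, IL-6 family cytokines act through the gp130 receptor and STAT3, and IL-1 and TNF act through NF-kB and C/EBP factors, on the promoters of acute-phase genes. CP encodes ceruloplasmin, a copper-carrying ferroxidase that oxidises the iron leaving cells. AGT encodes angiotensinogen, the only known precursor of angiotensin peptides, which renin cleaves first. SAA1 and SAA2 encode the acute-phase serum amyloid A proteins, LCN2 the siderophore-binding protein lipocalin 2, FGA, FGB and FGG the 3 chains of fibrinogen, and A2M a broad protease inhibitor.

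Promoter sequences of 250 bases before the start site were matched in RefSeq for 5 of the 9 genes, AGT, LCN2, FGA, FGB and FGG. The pair below is shown because AGT and LCN2 were the matched members that passed the filter on low counts. Capitals mark matches, on either strand, to the C/EBP motif TTNNGNAA, the STAT motif TTCNNNGAA, the AP-1 motif TGANTCA or the NF-kB consensus.
AGT promoter, GRCh38.p14, chr1:230714123-230714372, minus strand: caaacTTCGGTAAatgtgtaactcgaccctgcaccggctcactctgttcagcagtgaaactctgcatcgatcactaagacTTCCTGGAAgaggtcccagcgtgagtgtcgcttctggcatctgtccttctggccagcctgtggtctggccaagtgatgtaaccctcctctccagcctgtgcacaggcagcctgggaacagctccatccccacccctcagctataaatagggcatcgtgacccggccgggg
LCN2 promoter, GRCh38.p14, chr9:128149203-128149452, plus strand: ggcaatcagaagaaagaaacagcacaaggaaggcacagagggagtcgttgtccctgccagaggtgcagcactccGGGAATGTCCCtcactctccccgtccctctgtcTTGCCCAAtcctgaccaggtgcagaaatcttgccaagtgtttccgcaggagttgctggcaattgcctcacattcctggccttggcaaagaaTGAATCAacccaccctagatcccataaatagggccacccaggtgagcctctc
The AGT promoter held a C/EBP match at -245 to -238 from the start site and a STAT match at -170 to -162. The LCN2 promoter held a C/EBP match at -143 to -136, an AP-1 match at -52 to -46, and overlapping NF-kB matches between -176 and -166, 1 on each strand. No other matches overlapped each other.

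All 5 promoters held the C/EBP motif, which 33.6% of 27305 promoters of this length in RefSeq also held. The STAT motif was found in the AGT and FGA promoters and in 6.78% of all, the AP-1 motif in LCN2 alone of the 5 and in 6.60% of all, and the NF-kB consensus in LCN2 alone of the 5 and in 18% of all. The hypoxia response element ACGTG was in none of the 5 windows and in 18.7% of all. A match is a run of letters and not evidence of binding.

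Libraries held 62467286 to 70455517 counts in genes, and 3 counts in a library corresponded to 0.0399 to 0.0480 CPM, the reads of a gene scaled by library size with edgeR's TMM factors. All 6 epithelial markers reached 1 CPM in each group. Of 6 lung adenocarcinoma markers, 3 reached it in the H1975 groups and 1, MUC1, in the HCC44 groups, and the surfactant gene SFTPA1 had no counts. TTR, CD3E and DCN, markers of hepatocytes, T cells and fibroblasts, had no counts in any library, while other markers of those lists had some. Of 9 hepatocyte markers, 2 reached 1 CPM in the H1975 groups, led by CPS1, and none did in HCC44. These are bulk measurements, in which fewer cells that make a transcript and less of it per cell cannot be told apart.

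A fold change compares the 2 ACBI1 with the 2 DMSO libraries of a line. Adjusted p-values are from edgeR's two-sided quasi-likelihood test with Benjamini-Hochberg adjustment over all 21307 genes tested, called at an adjusted p under 0.05. CP, AGT, SAA1, SAA2 and LCN2 passed the filter on low counts that precedes the test. FGA, FGB, FGG and A2M did not pass it and have no test.

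With ACBI1, CP climbed in HCC44 from a trace to a high level, while every other tested member was lower in the same libraries. CP was counted 55 and 91 times in the HCC44 DMSO libraries, at 0.874 and 1.43 CPM. It was counted 4325 and 13936 times in the HCC44 ACBI1 libraries, at 69.2 and 219 CPM. Both ACBI1 libraries lay far above both DMSO libraries, and the ACBI1 libraries themselves differed 3.17-fold. The fitted change was 6.97 on the log2 scale (SE 0.654), a 125-fold rise.

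The size of the CP rise depended on which HCC44 ACBI1 library was used. Against the mean of the DMSO libraries, replicate 1 was 60.2-fold higher and replicate 2 was 191-fold higher. Under the 17 other settings the log2 change ranged from 5.91 to 7.57. Replicate 2 lay further from DMSO than replicate 1 also at 64.6% of the 3720 genes called higher in HCC44 with ACBI1. The share was 58.4% of the genes called lower in HCC44. In H1975 it was 67.6% of those called higher and 52.9% of those called lower.

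The summed level of 7 fibroblast and endothelial markers was also higher with ACBI1 in HCC44, at 77.6 to 96.6 CPM with DMSO and 207.7 to 412.1 CPM with ACBI1. COL1A1, a collagen chain, led that list at 200.4 CPM in ACBI1 replicate 1 and 403.5 CPM in replicate 2. The markers did not move together: LUM was at 0.779 and 0.956 CPM with DMSO and 3.43 and 4.56 CPM with ACBI1, whereas the endothelial markers PECAM1 and CDH5 were lower, CDH5 at 1.86 and 1.41 CPM with DMSO and 0.128 and 0.157 CPM with ACBI1. DCN was at 0 in all libraries, and 4 of the 7 markers reached 1 CPM with DMSO and 3 with ACBI1.

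The summed level of 6 leukocyte markers in HCC44 was 0.486 to 0.525 CPM with DMSO and 1.47 to 1.72 CPM with ACBI1. ITGAM, an integrin chain of myeloid cells, was higher, at 0.159 and 0.0940 CPM with DMSO and 1.28 and 1.59 CPM with ACBI1. PTPRC had 1 count with DMSO and 4 with ACBI1. CD68 was lower, at a mean of 0.245 CPM with DMSO and 0.0956 CPM with ACBI1, as was LYZ, at 0.126 and 0.0315 CPM. ITGAM was also higher with ACBI1 in H1975, at 0.280 and 0.118 CPM with DMSO and 0.665 and 0.509 CPM with ACBI1. CD3E was at 0, and ITGAM was the single leukocyte marker to reach 1 CPM in any group. Summed epithelial markers in HCC44 were also higher, at 940 to 980 CPM with DMSO and 1199 to 1658 CPM with ACBI1. Summed lung adenocarcinoma markers were at 3.2 to 3.5 CPM with DMSO and 10.8 to 16.1 CPM with ACBI1. Higher sums were thus not particular to the lists above. Summed hepatocyte markers were lower, at 0.47 to 0.75 CPM with DMSO and 0.30 to 0.31 CPM with ACBI1. The part of any cell type in the CP values was not tested.

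In H1975, CP stayed at the edge of detection. The DMSO libraries held 6 and 2 counts (0.0932 and 0.0296 CPM) and the ACBI1 libraries 5 and 1 (0.0665 and 0.0141 CPM). The groups overlapped. The ratio of summed counts, ACBI1 over DMSO, was 0.678 with an exact 95% interval of 0.194 to 2.23, which covers counting error only. The fitted log2 change was -0.54 (SE 2.4, adjusted p = 0.896), so a change of CP in H1975 was not detectable at this depth.

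CP lies at chr3:149162410-149222055 on the minus strand of GRCh38 (ENSG00000047457.13), and 19.4% of its exonic bases also lie in HPS3, which runs on the opposite strand. The strand setting of the counting is not given in the sources used here, so reads in the shared part may be assigned to either gene or left out. HPS3, a subunit of a lysosome-related organelle complex, averaged 71.8 and 61.8 CPM in H1975 with DMSO and ACBI1, and 94.9 and 113.8 CPM in HCC44. HPS3 was therefore well above CP in the 3 groups where CP was low, and below the CP mean in HCC44 with ACBI1.

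**Figure D1:**
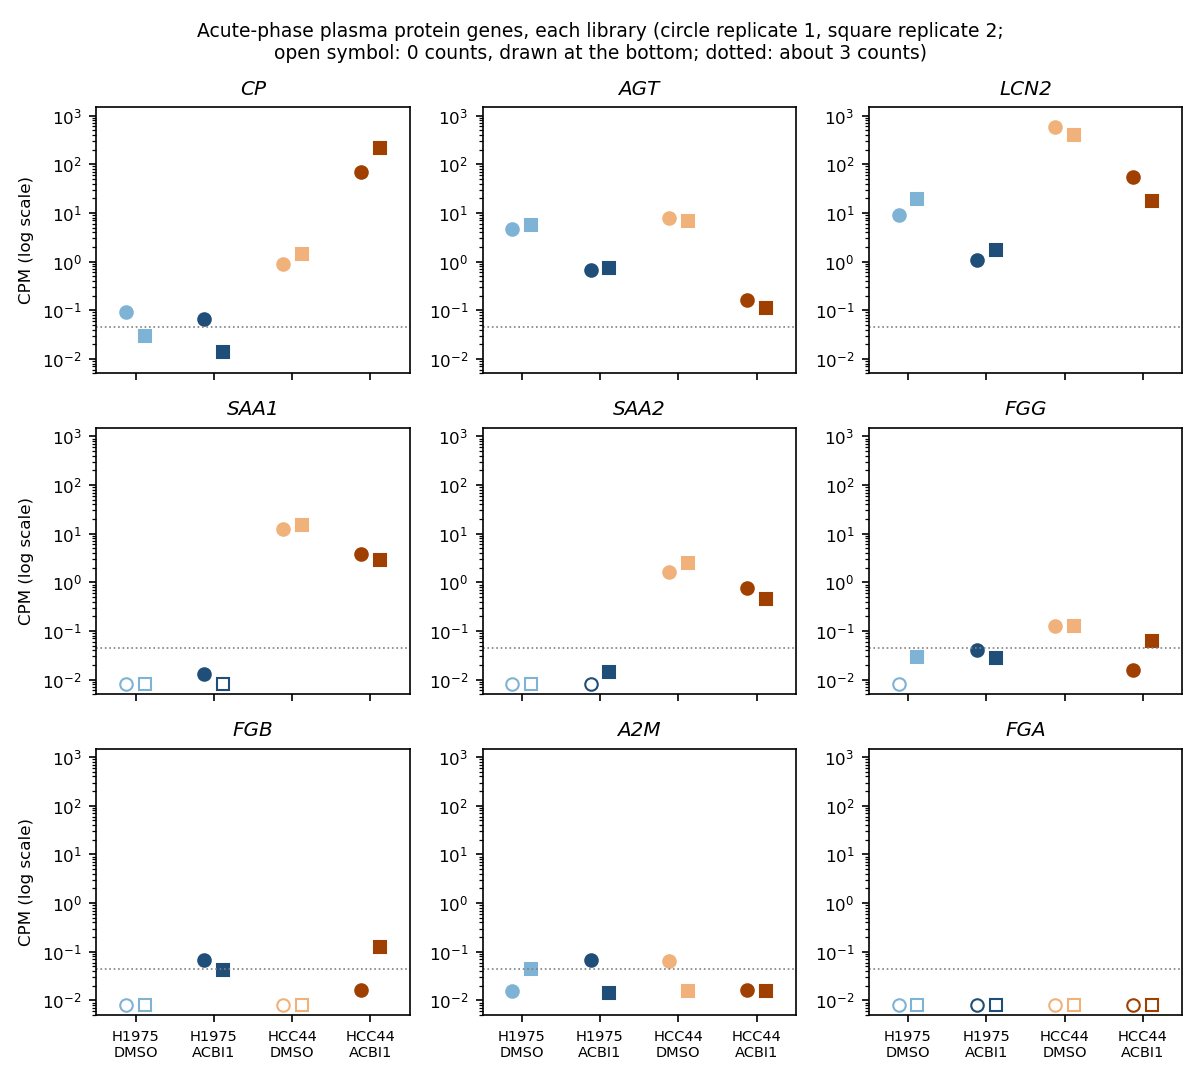
CPM on a log axis of the 9 acute-phase plasma protein genes in each of the 8 libraries, grouped on the horizontal axis by line and treatment, with circles for replicate 1 and squares for replicate 2. Open symbols at the bottom are libraries with 0 counts and the dotted line marks about 3 counts. CP reaches 69.2 and 219 CPM in HCC44 with ACBI1, AGT is lower with ACBI1 in both lines, and FGA has no counts.

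AGT moved the other way, and in both lines. In H1975 it was at 4.69 and 5.65 CPM with DMSO and at 0.665 and 0.735 CPM with ACBI1. In HCC44 it was at 7.69 and 6.83 CPM with DMSO and at 0.160 and 0.11 CPM with ACBI1. The groups did not overlap in either line, and the last pair rested on 10 and 7 counts.

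The fitted change of AGT was -2.88 on the log2 scale in H1975 (SE 0.233), 7.37-fold lower, and -5.73 in HCC44 (SE 0.293), 53.1-fold lower. The ACBI1 libraries held 12.9% and 14.2% of the DMSO mean in H1975, and 2.20% and 1.52% in HCC44. The loss in HCC44 was 2.85 larger on the log2 scale (SE 0.386), a description as AGT was selected on both changes. Replicates sat close together, and the other settings gave -3.02 to -2.68 in H1975 and -6.02 to -5.49 in HCC44.

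AGT lies at chr1:230702523-230714297 on the minus strand of GRCh38 (ENSG00000135744.7). An overlapping gene of the antisense class, annotated on the same strand as AGT, shares 6.81% of its exonic bases and averaged at most 0.0152 CPM in any group. The nearest coding gene, COG2, a subunit of a Golgi tethering complex, averaged 49.7 and 49.6 CPM in H1975 with DMSO and ACBI1, and 73.2 and 58.0 CPM in HCC44.

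SAA1 and SAA2, the inducible serum amyloid A genes, had reads in HCC44 and next to none in H1975, where each gave 1 count in all 4 libraries together. In HCC44 SAA1 was at 12.5 and 15.4 CPM with DMSO and at 3.81 and 2.83 CPM with ACBI1. SAA2 was at 1.62 and 2.54 CPM with DMSO and at 0.768 and 0.456 CPM with ACBI1. For both genes each ACBI1 library lay below each DMSO library.

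SAA1 fell 4.19-fold in HCC44 with ACBI1 (log2 change -2.07, SE 0.24, adjusted p = 0.000157) and kept its call under all 17 other settings. SAA2 fell 3.39-fold (log2 change -1.76, SE 0.387, adjusted p = 0.00593). Without HCC44 DMSO replicate 2 the SAA2 change was -1.40 and its call was lost (adjusted p = 0.0626). In H1975 both genes were under a floor of 3 counts over the group in both groups, so no fold is given.

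The SAA genes resemble each other, so some of their reads may be left out or misassigned. SAA2 lies at chr11:18239223-18248643 (ENSG00000134339.8, minus strand) and SAA1 at chr11:18266174-18269977 (ENSG00000173432.11, plus strand), 17531 bases apart. Of the stretches of 50 bases in SAA1 transcripts, 46.6% also occur in SAA2, and a read from such a stretch cannot be assigned to 1 of the pair. Reads aligned to more than 1 place were tallied apart from the genes and left out. Both genes may therefore be undercounted, also where levels are divided by length. The neighbouring SAA4, whose product is made without an acute-phase stimulus, averaged 0.260 CPM in HCC44 with DMSO and 0.0157 CPM with ACBI1.

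LCN2 had at least 80 counts in each library, and it was lower with ACBI1 in both lines. In H1975 it was at 9.21 and 19.5 CPM with DMSO and at 1.06 and 1.73 CPM with ACBI1. In HCC44 it was at 596 and 397 CPM with DMSO and at 53.8 and 17.4 CPM with ACBI1. The groups did not overlap in either line, but replicates were far apart, 2.12-fold in H1975 DMSO and 3.10-fold in HCC44 ACBI1.

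LCN2 fell 10.3-fold in H1975 (log2 change -3.37, SE 0.686, adjusted p = 0.00993) and 14-fold in HCC44 (log2 change -3.80, SE 0.6, adjusted p = 0.00271). The difference between the lines was -0.44 on the log2 scale (SE 0.884, adjusted p = 0.798), with too wide an error to show that the lines respond alike. The H1975 call was lost when any of its libraries was left out: without DMSO replicate 1 the log2 change was -3.81 (adjusted p = 0.0703), without DMSO replicate 2 -2.68 (0.157), without ACBI1 replicate 1 -3.03 (0.215) and without ACBI1 replicate 2 -3.74 (0.185). It was also lost with no filter on low counts (adjusted p = 0.087). The HCC44 call was lost without H1975 ACBI1 replicate 1 (adjusted p = 0.0526) or replicate 2 (adjusted p = 0.0535), which enter through the shared estimate of the spread. LCN2 lies at chr9:128149071-128153455 (ENSG00000148346.11, plus strand) and shares no exonic base with another gene.

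The fibrinogen genes and A2M were barely detected, and FGA was at 0 in all 8 libraries. FGB had no count in any DMSO library, 5 and 3 counts in H1975 with ACBI1, and 1 and 8 counts in HCC44 with ACBI1. Against a floor of 3 counts over the DMSO group, FGB was at least 2.41-fold higher in H1975 and at least 3.02-fold higher in HCC44, where 8 of the 9 counts were in replicate 2. The exact 95% lower limits of these ratios, which also carry the counting error of the ACBI1 groups, were 1.54 and 1.98. FGG, the gamma chain, went from 16 to 5 counts in HCC44, a ratio of 0.314 with an exact 95% interval of 0.09 to 0.897. Its ratio in H1975 was 2.26 (interval 0.37 to 23.7). A2M had 1 to 5 counts in each library, with ratios of 1.36 (0.322 to 6.54) in H1975 and 0.402 (0.0383 to 2.46) in HCC44.

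The fibrinogen genes sit together on chromosome 4, FGB at chr4:154562956-154571086, FGA at chr4:154583126-154590766 and FGG at chr4:154604134-154612967. FGA is 12040 bases from FGB and 13368 bases from FGG. Next to FGB, the splicing factor gene PLRG1 averaged 73.2 to 106.1 CPM across the 4 groups, while the fibrinogen genes beside it stayed near 0. A2M is at chr12:9067664-9116229 and shares 8.79% of its exonic bases with A2M-AS1 on the opposite strand.

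Of the 5 tested members, 2 were called lower in H1975 with ACBI1, against 16.7% of all 21307 genes tested, and none was called higher, against 14.6%. In HCC44, 4 were called lower, against 17.4% of all genes, and 1 was called higher, against 17.5%. For the difference of the ACBI1 response between the lines, 1 was called, against 18.6%. AGT and CP were selected on these contrasts and SAA1, SAA2 and CP passed the filter through groups where they are high, so nothing is read from these counts. The median log2 change over all tested genes was -0.01 in H1975 and 0.01 in HCC44.

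With DMSO alone, 4 of the 5 tested members were called higher in HCC44 than in H1975, where 31.6% of all tested genes were. CP, SAA1 and SAA2 passed the filter through HCC44, and CP and AGT were chosen on changes measured from these DMSO libraries. Nothing is therefore read from that count, and those 4 genes are described without a test. LCN2 was 34.6-fold higher in HCC44 (log2 difference 5.11, SE 0.642, adjusted p = 0.000264), with both HCC44 libraries above both H1975 libraries.

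SAA1, with no count in H1975 DMSO and 1766 in HCC44 DMSO, was at least 613-fold higher in HCC44 against a floor of 3 counts over the group, and the exact 95% lower limit of the ratio was 498. SAA2, with 264 counts in HCC44 DMSO and none in H1975 DMSO, was at least 91.7-fold higher on the same basis, with a lower limit of 74. CP had 146 counts in HCC44 DMSO against 8 in H1975 DMSO, a ratio of 19 with an exact 95% interval of 9.4 to 44.9. AGT was 1.4-fold higher in HCC44 (log2 difference 0.49, SE 0.203), with both HCC44 libraries above both H1975 libraries.

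Divided by exonic length, levels can be set side by side within a group. In HCC44 DMSO, LCN2 led with 311 ± 88 CPM per kb (mean ± SD, n = 2 libraries for all such values), rank 89 of 20309 tested genes with a length. SAA1 followed with 17.5 ± 2.6, AGT with 3.17 ± 0.27, SAA2 with 0.934 ± 0.29 and CP with 0.158 ± 0.053 CPM per kb. No neighbours in that order came within their spread of each other.

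In HCC44 ACBI1 CP moved up the order and AGT to the last place of the 5 tested members. LCN2 was at 22.3 ± 16 and CP at 19.8 ± 14.5 CPM per kb, and these did not differ beyond their spread. CP moved from rank 15915 to rank 2403, and LCN2 from rank 89 to rank 2087. SAA1 was at 4.17 ± 0.87, SAA2 at 0.275 ± 0.099 and AGT at 0.0590 ± 0.015 CPM per kb, which left AGT at rank 17725 after rank 9003.

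H1975 showed only LCN2 and AGT above the trace level. With DMSO, LCN2 was at 8.98 ± 4.6 and AGT at 2.26 ± 0.30 CPM per kb, at ranks 5117 and 10339. With ACBI1, LCN2 was at 0.873 ± 0.29 and AGT at 0.306 ± 0.022 CPM per kb, at ranks 13048 and 15681. CP was at 0.00841 CPM per kb with DMSO and 0.00553 with ACBI1.

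Among 12670 tested genes that reached 5 CPM in a group, the profile over the 8 libraries most like that of AGT was IL11, an IL-6 family cytokine. The root mean square difference of the centred log2 CPM profiles was 0.306. IL11 was at 213.5 and 263.7 CPM in H1975 with DMSO, 25.3 and 28.2 CPM in H1975 ACBI1, 422.1 and 303.2 CPM in HCC44 DMSO, and 8.71 and 10.4 CPM in HCC44 ACBI1. Like AGT, it was highest in HCC44 DMSO and lowest in HCC44 ACBI1. NUPR1 (0.73), a stress-induced nuclear protein, SEMA3B (0.795), a secreted semaphorin, the pseudogene RPLP0P2 (0.817) and PLAT (0.941), tissue plasminogen activator, came next. RPLP0P2 resembles its parent gene, so its reads are uncertain.

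CP had no such close match. The nearest profiles were those of RAB39B (1.32), a vesicle GTPase, CD38 (1.57), an NAD-consuming ectoenzyme, ITPRIPL1 (1.62), HAPLN1 (1.68), a hyaluronan link protein, and SPTSSB (1.69), a subunit of serine palmitoyltransferase. CD38 was at most 0.0466 CPM in the H1975 libraries, at 6.96 and 8.35 CPM in HCC44 DMSO, and at 31.1 and 87.1 CPM in HCC44 ACBI1. RAB39B was at 0.493 and 0.423 CPM in HCC44 DMSO and 20.0 and 8.58 CPM in HCC44 ACBI1, with replicate 1 the higher, the opposite order to CP. These likenesses are a description over 8 libraries that share group and depth.

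**Figure D2:**
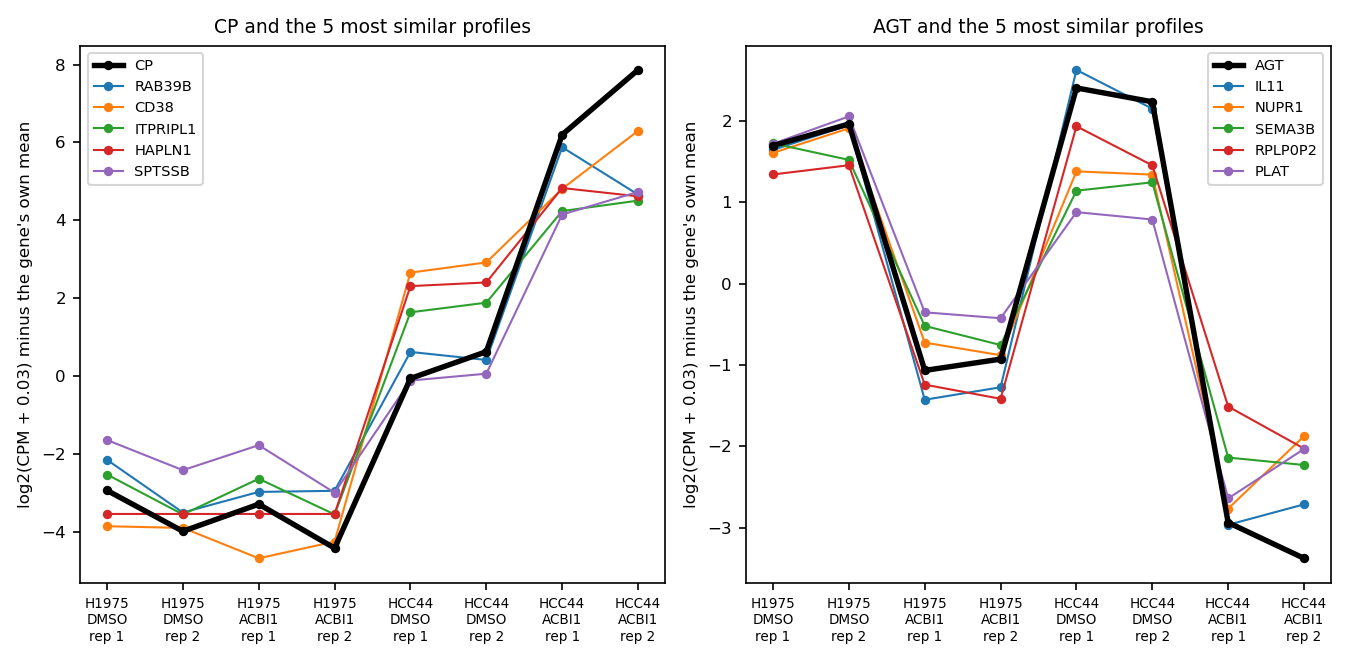
Log2(CPM + 0.03), each gene centred on its own mean, in each of the 8 libraries for CP (left) and AGT (right), drawn in black, and the 5 genes with the most similar profile. Lines join the libraries only to guide the eye. IL11 runs beside AGT with a root mean square difference of 0.306, while the gene nearest to CP, RAB39B, differs by 1.32.

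Most of the other acute-phase protein genes that were tested were called lower with ACBI1. Of 23 listed, 14 were tested, and 9 fell and none rose in H1975, with a median log2 change of -1.5. Of all genes tested, 16.7% fell and 14.6% rose in H1975. In HCC44, 10 fell and 1 rose, with a median of -2.03, where 17.4% of all genes fell and 17.5% rose. Among these falls, ORM1 and SAA4 passed the filter only through HCC44 DMSO, with at most 1 count in each H1975 library. ITIH4 passed it only through DMSO libraries. SAA4 is counted in this list although its product is made without an acute-phase stimulus. The filter favoured falls for such genes, so the counts are not read as a shared fall. CRP, the best known acute-phase protein, had no count in any library. The number called stayed within 1.5 times of these under each alternative setting, at 6 to 9 in H1975 and 8 to 12 in HCC44.

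SERPINA1, the elastase inhibitor alpha-1-antitrypsin, was at 75.4 and 76.7 CPM in H1975 with DMSO and 16.4 and 15.9 CPM with ACBI1. Its log2 change was -2.24 in H1975 (SE 0.173, adjusted p = 1.71e-05) and -2.91 in HCC44 (SE 0.201, adjusted p = 4.7e-06). Its direction was the same as that of AGT in both lines. C3, the central complement protein, fell in H1975 from 61.4 and 136.6 to 13.2 and 29.6 CPM (log2 change -2.21, adjusted p = 0.0126). The C3 call was lost without H1975 DMSO replicate 2 (adjusted p = 0.163), ACBI1 replicate 1 (0.162) or ACBI1 replicate 2 (0.0745), and with no filter (0.107).

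MT2A, a metal-binding metallothionein, went in opposite directions. It fell by 0.66 log2 units in H1975 (adjusted p = 0.00419) and rose in HCC44 by 1.40 (adjusted p = 3.86e-05), from 173.0 and 188.5 to 410.6 and 546.1 CPM, the single rise of the list and the same direction as CP there.

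**Figure D3:**
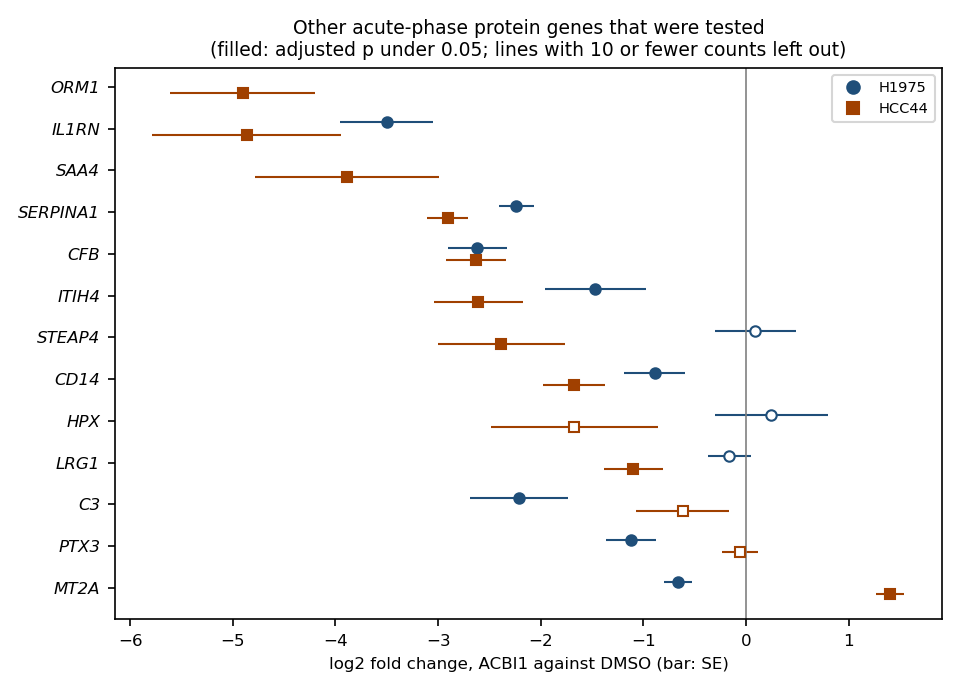
Log2 fold change, ACBI1 against DMSO, of 13 of the 14 tested acute-phase protein genes outside the main set, with circles for H1975, squares for HCC44 and bars for the SE. Filled symbols have an adjusted p under 0.05, and points resting on 10 or fewer counts are left out. In H1975 the filled symbols all lie below 0, and in HCC44 all but MT2A do.

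Most plasma proteins that the liver makes without an acute-phase stimulus were not expressed enough to test. Of 19 listed, 4 were tested, with 2 higher and 1 lower in H1975 and none called in HCC44. Of all genes tested, 14.6% rose and 16.7% fell in H1975, and 17.5% and 17.4% in HCC44. The genes called in H1975 had few counts outside the group where they were high, and passed the filter through that group. Nothing is therefore read from these counts. With no filter, 2 were called in HCC44. The H1975 calls rested on few reads, and none was left with a minimum of 1 CPM, with DESeq2, without H1975 DMSO replicate 1 or without H1975 ACBI1 replicate 1, while 1 was left without DMSO replicate 2 or ACBI1 replicate 2. Of 13 liver transcription factors, 8 were tested and 2 rose in each line. Of all genes tested, 14.6% rose in H1975 and 17.5% in HCC44, and nothing is read from 2 rises among 8 genes. FOXA1, a pioneer factor of foregut tissues, was at 55.8 and 55.1 CPM in HCC44 DMSO and 94.4 and 134.5 CPM in HCC44 ACBI1, with an adjusted p of 0.00397. In the same line ONECUT2 had a log2 change of 0.45 (adjusted p = 0.0304), and its call was lost without H1975 ACBI1 replicate 2 (0.0506), HCC44 DMSO replicate 1 (0.0856) or 2 (0.147), or HCC44 ACBI1 replicate 2 (0.165), and with each line fitted alone (0.0633).

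The list counts of the liver factors moved with the settings. In H1975 the 2 calls became 4 with library totals and 1 without DMSO replicate 2 or ACBI1 replicate 2. In HCC44 they became 6 with no filter, 4 with DESeq2 or without H1975 DMSO replicate 1 or 2 or HCC44 ACBI1 replicate 1, and 1 without HCC44 DMSO replicate 1 or with each line fitted alone. HNF4A, which controls many plasma protein genes in hepatocytes, did not pass the filter on low counts.

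All 23 genes of the cytokine pathways that act on acute-phase genes were tested. In H1975, 12 fell and 2 rose, and in HCC44, 7 fell and 5 rose, with medians of -0.38 and -0.25. The shares over all genes were 16.7% fallen and 14.6% risen in H1975, and 17.4% and 17.5% in HCC44. IL11 fell in both lines, by 3.16 on the log2 scale in H1975 (adjusted p = 7.58e-06) and in HCC44 by 5.25 (adjusted p = 5.15e-07). LIF, another IL-6 family cytokine, rose by 0.52 log2 units in H1975 (adjusted p = 0.0149) and in HCC44 by 0.865 (adjusted p = 0.000754). The LIF call in H1975 was lost without DMSO replicate 2 (adjusted p = 0.0632).

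The IL-1 cytokines were prominent in HCC44 with DMSO and nearly gone with ACBI1. IL1B was at 170.9 and 116.3 CPM with DMSO and 0.608 and 0.173 CPM with ACBI1 (log2 change -8.52, adjusted p = 1.25e-05). IL1A was at 148.5 and 152.2 CPM with DMSO and 7.52 and 3.30 CPM with ACBI1 (log2 change -4.80, adjusted p = 4.63e-05). IL1A and IL1B were thus low in the same HCC44 libraries as SAA1, SAA2 and LCN2. From much lower levels, both also fell in H1975, where SAA1 and SAA2 had next to no reads. The log2 change there was -6.46 for IL1B (adjusted p = 0.00164) and -2.23 for IL1A (adjusted p = 0.0341). The IL1A call did not hold with the replicate number as a block (adjusted p = 0.0601). With the main settings, neither response differed by test from line to line (adjusted p = 0.652 for IL1B and 0.0805 for IL1A).

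NFKBIZ, an NF-kB cofactor at the LCN2 gene, was at 97.0 and 56.1 CPM in H1975 with DMSO and 26.6 and 16.8 CPM with ACBI1 (log2 change -1.82, adjusted p = 0.0225). Its call was lost when any of the 4 H1975 libraries was left out (adjusted p from 0.114 to 0.293) and with no filter (0.144). The TNF receptor TNFRSF1A fell by 0.71 log2 units in H1975 (adjusted p = 0.000347). In HCC44, CEBPD, a C/EBP factor, rose by 0.74 log2 units (adjusted p = 0.000282) and NFKB1 by 0.47 (adjusted p = 0.00238). The 14 calls in H1975 became 6 without DMSO replicate 2, 7 without ACBI1 replicate 1 and 9 without ACBI1 replicate 2.

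AGT is the substrate of the renin-angiotensin system. Of its 18 other listed genes, 13 were tested, and 2 rose and 3 fell in H1975 and 4 rose and 3 fell in HCC44. The medians were -0.24 and -0.21. These counts stand beside 14.6% risen and 16.7% fallen of all genes in H1975, and 17.5% and 17.4% in HCC44, and 8 of the 13 in H1975 and 6 in HCC44 did not pass the test.

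Among the peptidases that cut angiotensins, neurolysin (NLN) rose by 0.70 log2 units in H1975 (adjusted p = 0.00105) and in HCC44 by 0.66 (adjusted p = 0.00109). DPP3, which degrades small angiotensins, rose by 0.36 log2 units in HCC44 (adjusted p = 0.00803), and its call was lost without HCC44 DMSO replicate 1 (0.0817). THOP1, thimet oligopeptidase, had log2 changes of 0.265 in H1975 (adjusted p = 0.0422) and 0.29 in HCC44 (adjusted p = 0.0259). Its calls were among the least firm, lost in H1975 without 5 single libraries (DMSO replicates 1 and 2 of both lines and H1975 ACBI1 replicate 1, adjusted p from 0.0702 to 0.287) and in HCC44 without 3 (DMSO replicates 1 and 2 and ACBI1 replicate 2 of that line, 0.0852 to 0.132). Fitting each line alone (0.0574) or using no filter (0.0568) also ended the H1975 call, and DESeq2 the HCC44 call (0.0525).

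The falls of this list were in proteases and the prorenin receptor. CTSD, the lysosomal cathepsin D, fell by 1.17 log2 units in H1975 (adjusted p = 4.9e-05) and in HCC44 by 0.49 (adjusted p = 0.00495), a call lost without HCC44 DMSO replicate 2 (0.0626). ANPEP, aminopeptidase N, was at 126.4 and 164.2 CPM in H1975 with DMSO and 52.1 and 67.1 CPM with ACBI1 (adjusted p = 0.0399), a call lost without any of the 4 H1975 libraries (0.18 to 0.334), with no filter (0.219), and with RLE, upper-quartile or library-total scaling (0.0507 to 0.0714). The prorenin receptor ATP6AP2 fell by 0.38 log2 units in H1975 (adjusted p = 0.0203), a call lost without DMSO replicate 2 (0.214) or ACBI1 replicate 1 (0.248) and with library totals (0.21). MME, neprilysin, fell by 0.77 log2 units in HCC44 (adjusted p = 0.0404), a call lost without HCC44 DMSO replicate 2 (0.356), ACBI1 replicate 1 (0.181) or ACBI1 replicate 2 (0.0622), and with upper-quartile (0.0524) or library-total scaling (0.0639).

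The 5 calls of the renin-angiotensin list in H1975 became 3 without DMSO replicate 1, 2 without DMSO replicate 2 or ACBI1 replicate 1, and 3 with library totals. The 7 calls in HCC44 became 4 without HCC44 DMSO replicate 2.

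CP links copper to iron export, and of 21 other genes of copper and iron handling 19 were tested. In H1975, 7 fell and 2 rose, where 16.7% of all genes fell and 14.6% rose. In HCC44, 4 fell and 6 rose, where 17.4% of all genes fell and 17.5% rose, so the share of falls there was near that of all genes. FTH1 and FTL, the heavy and light chains of the iron store ferritin, went in opposite directions in the lines. FTH1 was at 4054 and 5041 CPM in H1975 with DMSO against 1467 and 1883 CPM in H1975 with ACBI1, and at 1956 and 2264 CPM in HCC44 DMSO against 3360 and 3892 CPM in HCC44 ACBI1. Its log2 change was -1.44 in H1975 (adjusted p = 0.000105) and 0.78 in HCC44 (adjusted p = 0.00229).

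FTL rose by 1.22 log2 units in HCC44 (adjusted p = 0.000225). In H1975 its log2 change was -0.64 (adjusted p = 0.0105), a call lost without DMSO replicate 2 (-0.39, adjusted p = 0.0969) or ACBI1 replicate 1 (-0.45, adjusted p = 0.0969). HMOX1, heme oxygenase, was at 106.1 and 93.1 CPM in H1975 with DMSO and 257.9 and 230.8 CPM with ACBI1 (adjusted p = 0.00549). In HCC44 its log2 change was 1.34 (adjusted p = 0.00426). The H1975 call of HMOX1 was lost without DMSO replicate 1 (0.0516) or 2 (0.068). TFR2, the iron-sensing transferrin receptor, rose by 1.23 log2 units in H1975 (adjusted p = 0.000787) and in HCC44 by 1.84 (adjusted p = 5.31e-05).

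ACO1, an iron regulatory protein, fell by 0.86 log2 units in H1975 (adjusted p = 0.000851) and in HCC44 by 0.855 (adjusted p = 0.000636). TFRC, the main transferrin receptor, fell by 0.73 log2 units in H1975 (adjusted p = 0.00742), a call lost without DMSO replicate 2 (0.0545) or ACBI1 replicate 1 (0.0695). The copper importer SLC31A1 fell by 0.98 log2 units in HCC44 (adjusted p = 7.33e-05) and its relative SLC31A2 by 0.76 (adjusted p = 0.0018). SLC31A1 also fell in H1975, where CP stayed low, with a log2 change of -0.66 (adjusted p = 0.00126). SLC31A2 had a log2 change of -0.23 there (adjusted p = 0.233). With the main settings, neither gene had a response that differed by test from line to line (adjusted p = 0.166 and 0.0869). The 9 calls in H1975 became 4 without DMSO replicate 2 and 5 without ACBI1 replicate 1.

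**Figure D4:**
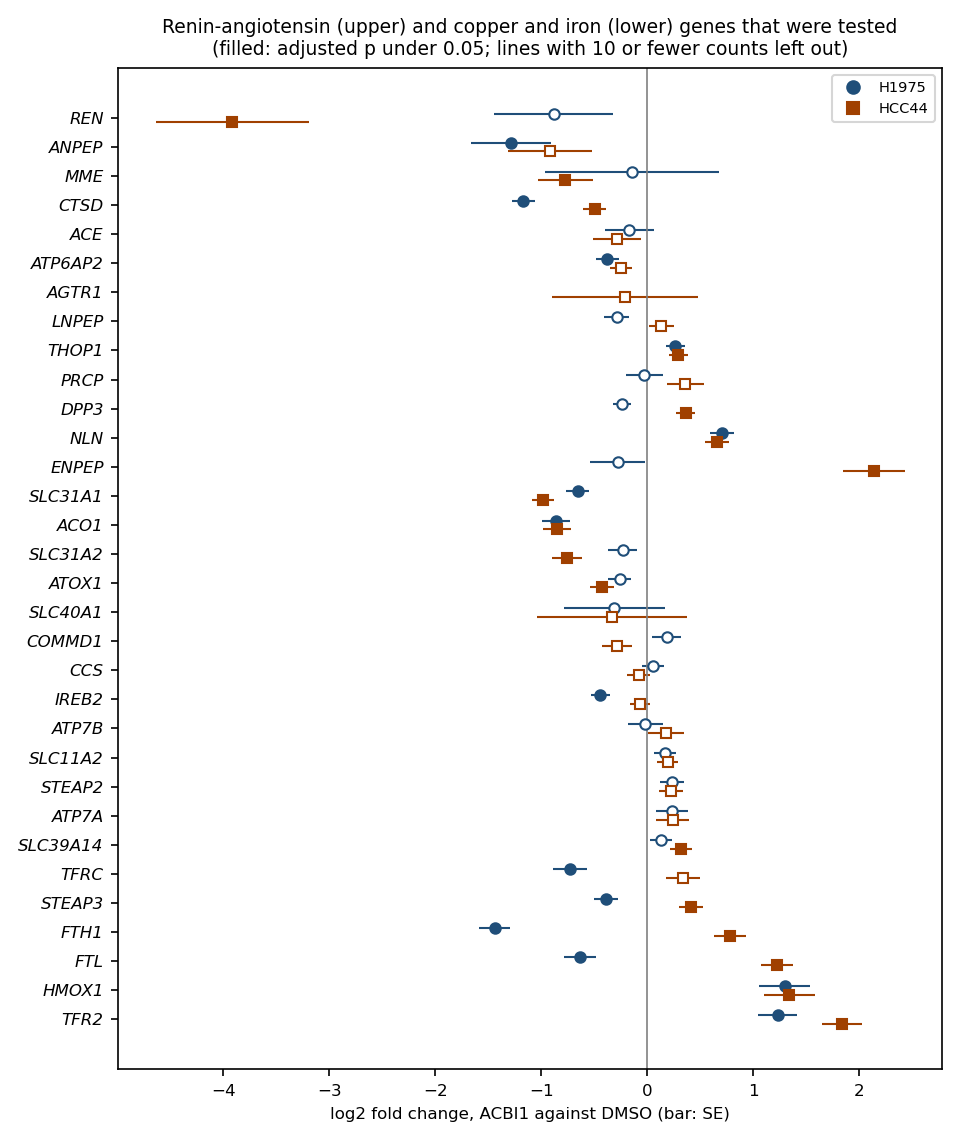
Log2 fold change, ACBI1 against DMSO, of the tested renin-angiotensin genes (upper rows) and copper and iron genes (lower rows), with circles for H1975, squares for HCC44 and bars for the SE. Filled symbols have an adjusted p under 0.05, and points resting on 10 or fewer counts are left out. FTH1 and FTL lie below 0 in H1975 and above 0 in HCC44, while NLN, HMOX1 and TFR2 lie above 0 in both lines.

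Of 16 receptors and binding partners of these plasma proteins, 9 were tested. In H1975 4 fell and in HCC44 5 fell, with medians of -0.68 and -0.44, beside 16.7% and 17.4% fallen among all genes. None was called higher in either line, where 14.6% and 17.5% of all genes rose, and nothing is read from the lack of rises among 9 genes. MMP9, the gelatinase that lipocalin 2 binds, was at 17.5 and 23.5 CPM in H1975 with DMSO and 2.59 and 2.35 CPM with ACBI1 (log2 change -3.05, adjusted p = 8.4e-06). It fell in the same libraries as LCN2.

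F3, tissue factor, the starter of the clotting cascade that ends in fibrin, fell by 1.52 log2 units in H1975 (adjusted p = 2.76e-05) and in HCC44 by 1.25 (adjusted p = 4.78e-05). ITGB3, a subunit of the platelet fibrinogen receptor, fell by 1.83 log2 units in H1975 (adjusted p = 0.00161) and in HCC44 by 0.97 (adjusted p = 0.0311). The HCC44 call of ITGB3 was lost without any 1 library other than HCC44 ACBI1 replicate 2 (adjusted p from 0.0503 to 0.145), and with each line fitted alone (0.0669). SCARB1, a lipoprotein receptor that also binds serum amyloid A, fell by 0.68 log2 units in H1975 (adjusted p = 0.00554) and in HCC44 by 0.44 (adjusted p = 0.0347). The HCC44 call of SCARB1 was lost without HCC44 DMSO replicate 2 (log2 change -0.31) or ACBI1 replicate 1 (-0.22). It was also lost with library totals (adjusted p = 0.0716) and with each line fitted alone (0.0739). The 5 calls in HCC44 became 2 without HCC44 DMSO replicate 2 and 3 without HCC44 ACBI1 replicate 1.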

How the data were processed

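The authors deposited a table of raw read counts by gene symbol for each library. Per the submitters' processing notes, TopHat2 2.1.1, HTSeq 0.11.0 and the build hg38 were used. The annotation and strand setting are not given in the sources used here. The 5 summary rows of each table, 14.3 to 15.8% of its total, were left out.

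Genes were tested with edgeR 4.0.16 (R 4.3.3), using filterByExpr (21307 genes kept), TMM factors, a mean per group over all 8 libraries, robust quasi-likelihood dispersions and 4 residual degrees of freedom. The procedure was tested on simulated data. Replicates differed by more than sampling noise (chi-square per degree of freedom from 21.7 to 43.5). Gene positions and lengths are from a GENCODE annotation of GRCh38, and promoters from RefSeq GRCh38.p14. Figures were drawn with matplotlib 3.10.9.

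The members and the 7 gene lists were chosen with earlier results of these data known. The rule for named genes was: all members, up to 3 called rises and 3 called falls per list and line with the largest log2 change at 5 CPM or more in a group of that line, the 5 profiles nearest to CP and AGT, and overlapping or neighbouring genes. Single genes named beyond the rule (SAA4, ORM1, ITIH4, CRP, COL1A1, other markers, HNF4A) were chosen after their values were seen. A gene named by this rule is left out here.

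Alternatives were DESeq2 1.42.0, other scalings and filters, each line fitted alone, non-robust dispersion, the replicate number as a block, and each library left out in turn. Counts per list under them were added after seeing the data.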

Additional observations from a re-analysis of the deposited data

Results flagged for a closer look

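For 11 of the genes named from the 7 lists, H1975 and HCC44 differed in their response to ACBI1 by the test of the difference itself (edgeR's quasi-likelihood test, adjusted over all 21307 genes). Of all genes tested, 18.6% were called for this difference. The genes were named for the largest called changes within a line, which favours a difference between the lines. Nothing is therefore read from how many were called. Values are the log2 change in HCC44 minus that in H1975. CP and AGT were selected on these contrasts and have no such test, nor do the genes named for a profile like theirs or the cell type markers.

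The differences above 0 were 2.22 for FTH1 (adjusted p = 0.000155), 2.07 for MT2A (adjusted p = 0.000128), 1.86 for FTL (adjusted p = 0.000569), 1.78 for FOXA1 (adjusted p = 0.00656) and 1.52 for MMP9 (adjusted p = 0.0469). Further ones were 1.07 for TFRC (adjusted p = 0.0109), 0.73 for TNFRSF1A (adjusted p = 0.00409), 0.68 for CTSD (adjusted p = 0.0122), 0.60 for CEBPD (adjusted p = 0.0155) and 0.60 for DPP3 (adjusted p = 0.00733). The difference below 0 among the 11 was that of IL11, at -2.09 (adjusted p = 0.000669), whose fall was larger in HCC44. FTH1 and MT2A, which bind iron or other metals, fell in H1975 and rose in HCC44, as did FTL, whose H1975 call was lost without DMSO replicate 2 (adjusted p = 0.0969) or ACBI1 replicate 1 (adjusted p = 0.0969).

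Of these 11 calls, 3 were lost in some settings. The MMP9 difference was lost with RLE factors (adjusted p = 0.0554), with library totals (adjusted p = 0.0578) and without any 1 library other than H1975 DMSO replicate 1 (adjusted p from 0.0652 to 0.181). The CTSD difference was lost without H1975 DMSO replicate 2 (adjusted p = 0.052), H1975 ACBI1 replicate 1 (adjusted p = 0.0563) or HCC44 DMSO replicate 1 (adjusted p = 0.0643). The CEBPD difference was lost without H1975 ACBI1 replicate 1 (adjusted p = 0.0868) or HCC44 DMSO replicate 1 (adjusted p = 0.0746).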

How the results depend on the processing

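Of 327 alternative values for the members, 302 were unchanged, 14 lost a call, 6 gained one, 5 untested ones moved by more than the replicate spread, and none of those with a call reversed. Unchanged means that a tested value stayed on its side of the threshold, and a called one also kept its direction. Values with no call could change sign: the log2 change of CP in H1975 ranged from -1.93 to 0.445, and the LCN2 difference between the lines from -1.46 to 0.166. Of 2766 for the other named genes, 2575 were unchanged in that sense, 116 lost a call and 75 gained one. Of 462 counts of calls per list, 54 moved by over 1.5 times. Leaving out 1 library gave 3690 to 7161 called genes in H1975 (6663 with all), 4945 to 7342 in HCC44 (7438), 2341 to 4134 for the difference between the lines (3967) and 12940 to 14912 between the DMSO groups (14477). The lone library of a group is then assumed to vary like the others.

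With the replicate block, the difference between the lines had 6358 calls, and in HCC44 the cytokine list had 20 against 12 and the liver factors 4 against 2. The labels say nothing of what a number shares. Deviations of same-numbered libraries correlated at 0.374 in H1975 and 0.109 in HCC44, across 21307 genes that are not independent. Scaled by library totals, 72.3% of the H1975 calls were rises against 46.6%, and 60.5% of the HCC44 calls against 50.01%, and 40.5% of the calls for the difference lay above 0 against 54.9%. The median of all genes moved by 0.194 in H1975 and by -0.114 for the difference. Depth limits CP in H1975, AGT in HCC44 with ACBI1, and FGA, FGB, FGG and A2M, which rest on few counts.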
